A study of Rattus norvegicus with 10 samples.

Results

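Cholesterol synthesis in the rat liver was followed through 7 genes after sulfur mustard (SM), an alkylating vesicant, and after SM followed by MSTF, a plant mixture that combines the salvianolic acids of Salvia miltiorrhiza with the flavonoids of Anemarrhena asphodeloides. The 7 genes were Hmgcs1, Idi1, Fdps, Fdft1, Sqle and Cyp51, which encode enzymes, and Insig1, which encodes a regulator. They were found on the array by the accession that each probe carries, which gave 13 probes out of 41012. Although the set was named for cholesterol synthesis and LDL uptake, all 6 enzymes belong to synthesis, and no member takes up lipoprotein. All animals were male Sprague Dawley rats, and every liver was taken at 24 h and hybridized to a one-colour Agilent oligo microarray, with 1 array per rat. The 3 control rats received the solvent propylene glycol, and 4 rats received SM alone under the skin at 3.5 mg/kg, which is 0.7 of the LD50. Another 3 rats had SM at that dose and MSTF by the intragastric route at 120 mg/kg 1 h later (SM + MSTF). Each group had held 10 rats, so the arrays cover some of the animals. The arrays lay on 3 slides, with the 3 control arrays and SM + MSTF replicate 3 on one, all 4 SM arrays on another and SM + MSTF replicates 1 and 2 on the last, so SM and its slide cannot be told apart.

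The liver makes cholesterol from acetyl-CoA through mevalonate, isoprenoid phosphates, squalene and lanosterol. The genes of this route share a control. When sterol in the endoplasmic reticulum is low, SCAP carries the transcription factor SREBP-2 to the Golgi, where it is cut free and goes on to the nucleus to switch on the enzyme genes. INSIG proteins, of which Insig1 encodes one, hold SCAP back when sterol is plentiful, and Insig1 is itself a target of SREBP and is also known to respond to insulin in liver.

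Promoter windows of 250 bases before to 50 after the start site were at hand in the RefSeq table (build GRCr8) for 5 of the 7 genes. The windows of Hmgcs1 (chr2:53382054-53382353, plus strand), Idi1 (chr17:66547475-66547774, minus strand) and Insig1 (chr4:8057720-8058019, minus strand) are shown. They were picked because, on the brightest probe of each, Hmgcs1 and Idi1 rose and fell together from rat to rat (r = 0.88). On these probes Insig1 followed neither of them (r = -0.17 and -0.06). With the other enzymes Insig1 had r from 0.09 to 0.63. Capitals mark matches on either strand to CCAAT (the NF-Y box), GGGCGG (the Sp1 box) and CACGTG (an E-box).
Hmgcs1: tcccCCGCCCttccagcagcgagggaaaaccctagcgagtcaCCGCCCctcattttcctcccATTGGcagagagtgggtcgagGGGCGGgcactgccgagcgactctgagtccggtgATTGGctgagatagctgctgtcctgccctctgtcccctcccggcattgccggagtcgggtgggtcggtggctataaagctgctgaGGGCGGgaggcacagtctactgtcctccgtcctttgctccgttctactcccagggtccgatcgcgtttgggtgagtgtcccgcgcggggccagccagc
Idi1: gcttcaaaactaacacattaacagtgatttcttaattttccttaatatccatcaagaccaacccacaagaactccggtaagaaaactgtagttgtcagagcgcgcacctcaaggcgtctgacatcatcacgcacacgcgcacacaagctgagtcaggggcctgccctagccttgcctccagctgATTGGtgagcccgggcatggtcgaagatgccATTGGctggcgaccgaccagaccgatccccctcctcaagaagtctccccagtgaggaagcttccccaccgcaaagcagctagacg
Insig1: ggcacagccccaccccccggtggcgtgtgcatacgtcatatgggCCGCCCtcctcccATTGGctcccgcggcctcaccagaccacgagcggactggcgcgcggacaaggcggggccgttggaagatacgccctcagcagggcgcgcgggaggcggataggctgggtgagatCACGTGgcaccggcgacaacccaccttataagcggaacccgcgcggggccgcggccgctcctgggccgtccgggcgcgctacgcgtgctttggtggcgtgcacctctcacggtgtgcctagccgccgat
CCAAT was found in 4 of the 5 windows, and in 37.5% of the 33469 windows of the same length in the table. GGGCGG was also found in 4 of 5 windows, against 33.1% of all windows, and CACGTG in 1 of 5, that of Insig1, against 6.42%. Hmgcs1 and Idi1 each held 2 CCAAT matches, Fdps held 2 and Insig1 held 1, while Cyp51 held 2 GGGCGG matches and none of CCAAT. The short form of the sterol regulatory element, TCACNCCAC, was matched in 0 of 5 windows and in 1.12% of all windows. Other forms of that element were not searched for, so the count does not show that the windows lack one. A match describes the letters of the window, and none of these counts was tested.

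All 13 probes lay well above background on all 10 arrays. The log2 signal of the brightest probe of each gene averaged from 10.0 for Fdft1 to 15.5 for Insig1, values that depend on the probe and are not compared between genes. Array quality differed little between groups. From 51.9% (control replicate 2) to 61.4% (SM replicate 2) of all probes on an array were well above background. All 8 hepatocyte markers were well above background on every array.

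None of the 7 genes was called changed in any of the comparisons by limma (Benjamini-Hochberg adjusted p under 0.05 and a change of at least 1.5-fold). In SM versus control 0 of 7 were called, where 553 of 22987 probes tested (2.41%) were called over the whole array. For SM + MSTF against control, 0 of 7 were called beside 0% of all probes, and against SM 0 of 7 beside 290 probes (1.26%). At an unadjusted p under 0.05 the counts were 1 of 7, 0 of 7 and 0 of 7, where 16.4%, 9.54% and 15.9% of all probes passed in the same comparisons, and the 1 gene was Insig1, a share no higher than that of the array. The study's own rule, a t-test at an unadjusted p under 0.05 with the same fold, also called 0 of 7 in each comparison, beside 4.92%, 1.24% and 3.75% of all probes. The arrays of the groups overlapped for every gene in all 3 comparisons, whereas 18.0%, 15.4% and 14.7% of all probes did not overlap. The median log2 change of the 7 genes from control was 0.12 in SM rats and 0.12 in SM + MSTF rats, and that between SM and SM + MSTF was 0.08, beside medians of 0.03, 0.00 and -0.02 over all probes tested. In whole liver, a change in the number of cells of a type and a change in RNA per cell cannot be told apart.

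**Figure D1:**
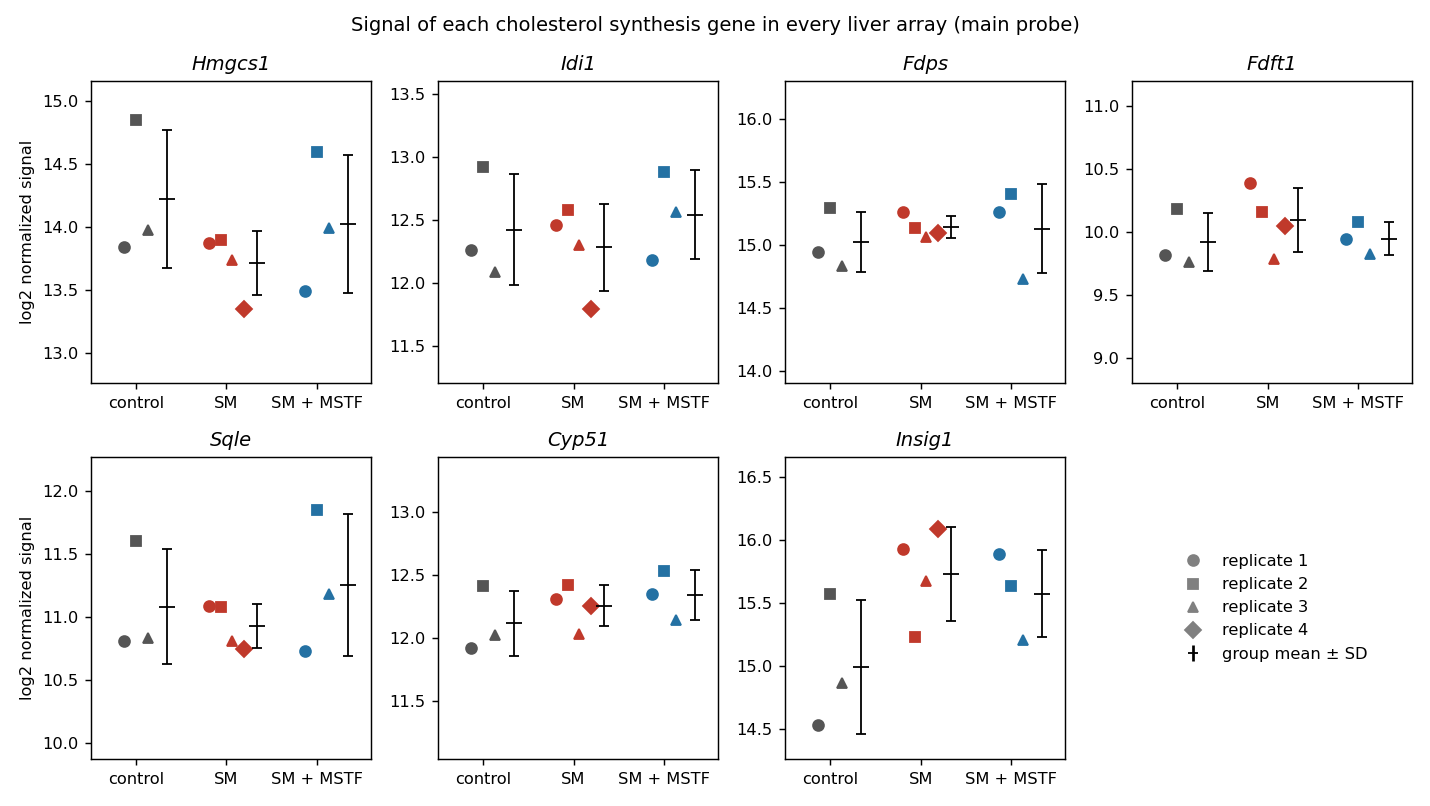
Log2 normalized signal (y axis) of the brightest probe of each of the 7 genes on every array, by group (x axis), with the replicate as symbol and black bars for the group mean ± SD. Each panel spans the same log2 distance. Control replicate 2 is the highest control array in all 7 panels, the groups overlap in every panel, and Insig1 has the widest gap between the control mean and the SM mean.

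Hmgcs1 encodes the cytosolic HMG-CoA synthase, which makes the HMG-CoA that is reduced to mevalonate. On the brighter of its 2 probes the log2 signal was 13.84, 14.85 and 13.98 on control arrays 1 to 3, 13.87, 13.90, 13.74 and 13.35 on SM arrays 1 to 4, and 13.50, 14.59 and 13.99 on SM + MSTF arrays 1 to 3. Control replicate 2 and SM + MSTF replicate 2 stood above the other 8 arrays, and the lowest value was that of SM replicate 4. The log2 change in SM versus control was -0.51 ± 0.30 (SE; limma adjusted p = 0.450), with a 95% interval of -1.18 to 0.16. The dimmer probe gave 10.51, 11.33 and 10.92 on control arrays, 11.25, 11.46, 11.07 and 10.64 on SM arrays and 10.74, 11.85 and 10.94 on SM + MSTF arrays. There the change in SM versus control was 0.19 ± 0.30 (adjusted p = 0.813). The probes thus differed in sign, neither estimate passed the test, and a direction for Hmgcs1 after SM cannot be given. Between SM + MSTF and SM the brighter probe differed by 0.31 ± 0.30 (adjusted p = 0.620).

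Idi1 encodes isopentenyl-diphosphate isomerase, which interconverts the 2 five-carbon isoprenoid units. Its brighter probe read 12.26, 12.92 and 12.09 on control arrays, 12.45, 12.58, 12.30 and 11.79 on SM arrays and 12.18, 12.88 and 12.56 on SM + MSTF arrays. The order of rats resembled that of Hmgcs1, with replicate 2 of control and of SM + MSTF at the top and SM replicate 4 at the bottom. The log2 change was -0.14 ± 0.26 in SM rats (adjusted p = 0.838) and 0.12 ± 0.27 in SM + MSTF rats (adjusted p = 0.910), each against control. The dimmer probe had changes of 0.06 and 0.37 in the same comparisons, also short of the threshold.

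Fdps encodes farnesyl diphosphate synthase, whose product feeds sterols and also the prenyl groups of proteins. It had the narrowest range of the 7 in SM rats, at 15.26, 15.13, 15.06 and 15.10, against 14.94, 15.29 and 14.83 in control and 15.26, 15.40 and 14.73 in SM + MSTF. SM + MSTF replicate 3 was the lowest of all 10 arrays for this gene and replicate 2 of that group the highest. The change in SM versus control was 0.12 ± 0.17 (adjusted p = 0.787; 95% interval -0.26 to 0.50), so the interval lay within 1.5-fold either way, and the second probe gave 0.05.

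Fdft1 and Sqle encode squalene synthase and squalene epoxidase, the steps that commit farnesyl diphosphate to sterols and oxidize squalene. Fdft1 read 9.82, 10.19 and 9.76 in control, 10.40, 10.16, 9.78 and 10.05 in SM, and 9.94, 10.08 and 9.83 in SM + MSTF, on its single probe. SM replicate 1 was the highest array and the 3 groups covered much the same range. Its change in SM versus control was 0.17 ± 0.16 (adjusted p = 0.641; 95% interval -0.18 to 0.53). Sqle, also on a single probe, read 10.81, 11.61 and 10.83 in control, 11.08, 11.08, 10.81 and 10.75 in SM, and 10.73, 11.85 and 11.18 in SM + MSTF. Here SM + MSTF held both the lowest and the highest array of all 10. The log2 change of Sqle was -0.15 ± 0.27 from control to SM (adjusted p = 0.835) and 0.32 ± 0.27 from SM to SM + MSTF (adjusted p = 0.57), the latter being the largest among the 7 genes.

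Cyp51 encodes the lanosterol demethylase, the cytochrome P450 of the pathway after the sterol rings have closed. Control arrays read 11.92, 12.41 and 12.02, SM arrays 12.31, 12.42, 12.03 and 12.26, and SM + MSTF arrays 12.35, 12.53 and 12.14. Its within-group SD of 0.20 was the lowest of the 7. The change was 0.14 ± 0.15 in SM rats (adjusted p = 0.706; 95% interval -0.20 to 0.48) and 0.22 ± 0.16 in SM + MSTF rats (adjusted p = 0.688), both against control.

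Insig1, the regulator, had the largest change of the 7 in SM versus control. Its brightest probe read 14.54, 15.58 and 14.87 in control, 15.93, 15.23, 15.68 and 16.09 in SM, and 15.89, 15.64 and 15.20 in SM + MSTF. On this probe 3 of 4 SM arrays and 2 of 3 SM + MSTF arrays lay above every control array, while SM replicate 2 and SM + MSTF replicate 3 lay within the control range. The log2 change in SM versus control was 0.74 ± 0.28, or 1.67-fold with a 95% interval of 1.08 to 2.59, at an unadjusted p of 0.0262 and a limma adjusted p of 0.226. The other 3 probes gave changes of 0.79, 0.77 and 0.83 with adjusted p of 0.252, 0.258 and 0.218, and on these 2 of 4 SM arrays exceeded every control array. In SM + MSTF versus control the 4 probes gave 0.59, 0.77, 0.70 and 0.73, with adjusted p from 0.522 to 0.574. From SM to SM + MSTF the brightest probe differed by -0.16 ± 0.28 (adjusted p = 0.809; 95% interval -0.79 to 0.48) and -0.10 to -0.03 on the others. The 4 probes read the same transcript in the same RNA and are not independent (r from 0.958 to 0.998 over 10 arrays).

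For Insig1, as for the other genes, SM and its slide cannot be told apart. SM + MSTF replicate 3, the one treated array on the slide of the controls, read 15.20 and lay within their range, as did SM replicate 2 (15.23) on another slide. With the slide as a random block the change in SM versus control was 0.70 (limma adjusted p = 0.464), a fit that cannot separate SM from its slide. With the slide as a fixed block, SM + MSTF versus control gave 0.21 on the brightest probe, where the main fit gave 0.59. The other probes gave 0.22 to 0.32. These values rest on SM + MSTF replicate 3 alone against the 3 controls of its slide.

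**Figure D2:**
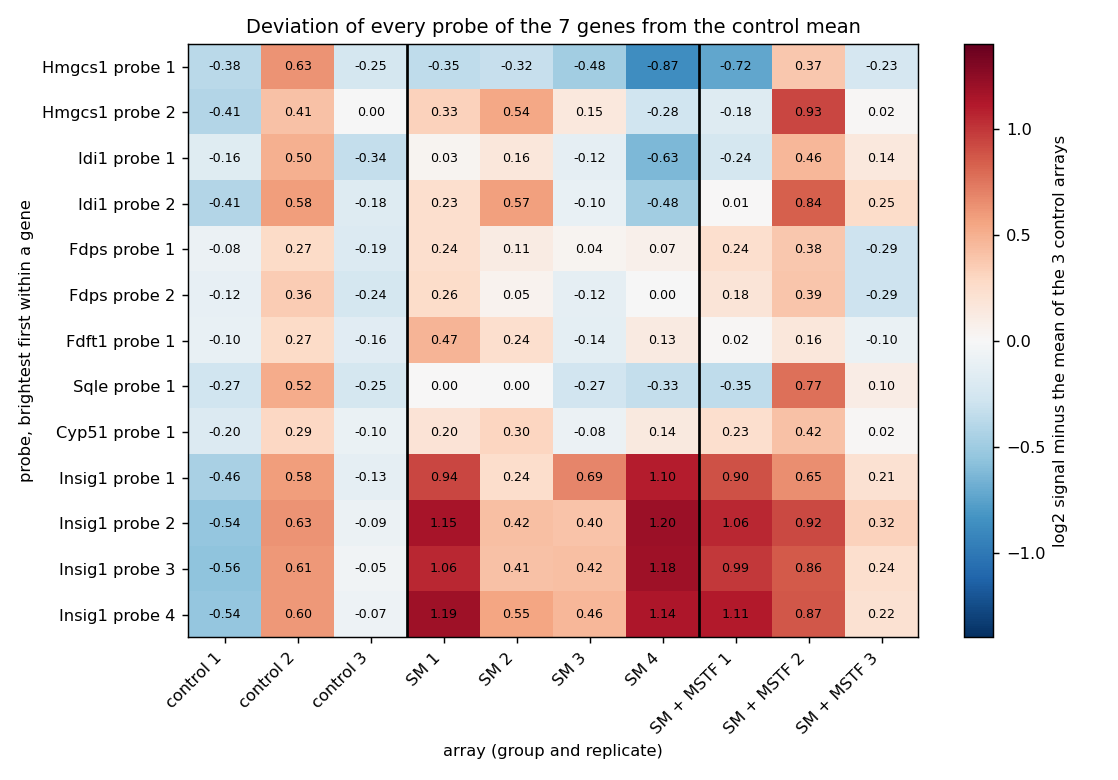
Log2 signal minus the mean of the 3 control arrays (colour and printed value) for each of the 13 probes (rows) on each of the 10 arrays (columns, split by group with black lines). Control replicate 2 and SM + MSTF replicate 2 are red from top to bottom, and the 4 Insig1 probes are red in all SM and SM + MSTF arrays.

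**Figure D3:**
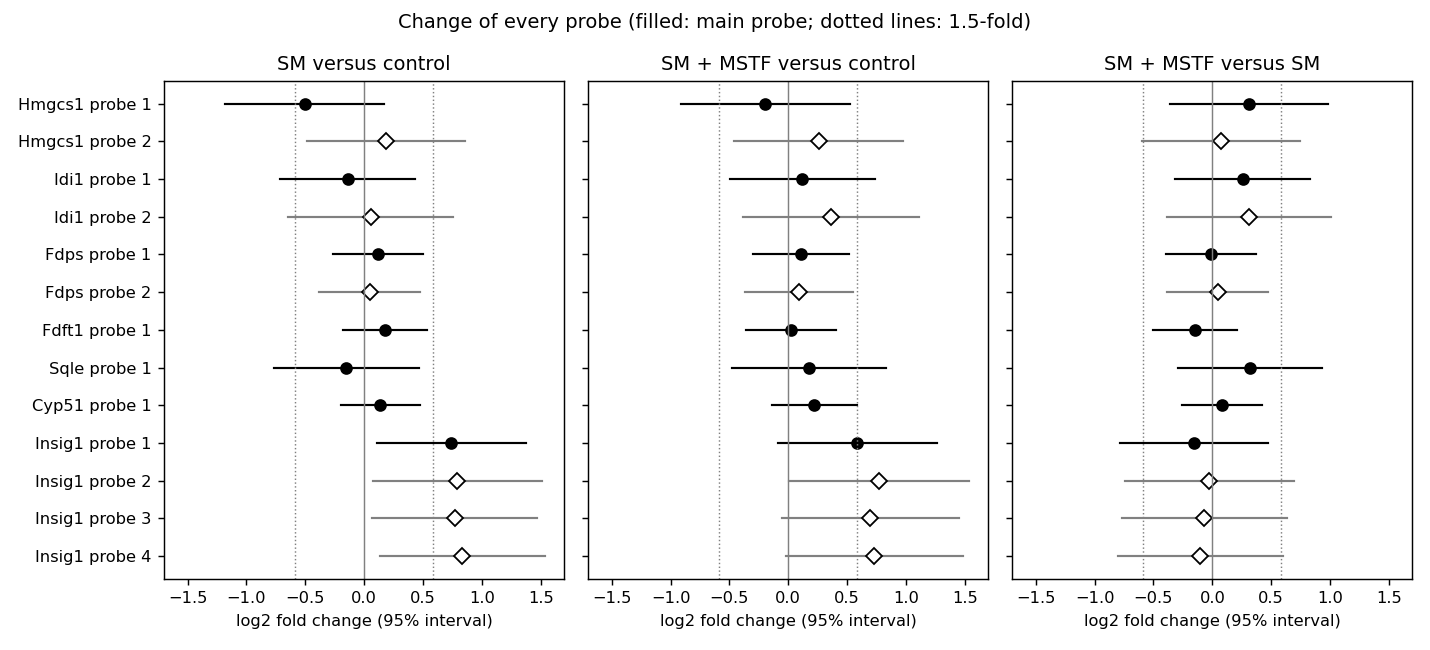
Log2 fold change (x axis) with its 95% limma interval for each of the 13 probes (y axis) in the 3 comparisons, with filled circles for the brightest probe of a gene and dotted lines at 1.5-fold. Only Insig1 probes have intervals that leave out 0 before adjustment, all 4 for SM and 1 for SM + MSTF, and none passed the adjusted threshold.

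The genes varied more from rat to rat than most probes of like brightness. The within-group SD on the log2 scale ran from 0.20 for Cyp51 to 0.45 for Hmgcs1, beside a median of 0.13 to 0.16 for the 1000 probes nearest in signal to each gene, and 70.8% to 94.6% of those probes had a smaller SD. The fold between the lowest and the highest rat of a group reached 2.06 in control (Insig1), 1.81 in SM (Insig1) and 2.17 in SM + MSTF (Sqle). By comparison, the widest fold between group means on these probes was 1.67, that of Insig1 in SM versus control. Control replicate 2 was the highest control array for 7 of 7 genes, and SM + MSTF replicate 2 was the highest of its group for 6 of 7, the exception being Insig1. Averaged over the 7 genes, the deviation from the control mean was 0.44 on control replicate 2 and 0.46 on SM + MSTF replicate 2, and between -0.24 and 0.22 on the other 8 arrays. Control replicate 2 was also the array with the fewest probes well above background (51.9%), followed by SM + MSTF replicate 2 (53.4%), and whether that plays a part in their high values was not tested.

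On the brightest probe of each gene, the 6 enzymes had their highest correlations across the 10 arrays within a pair of trios, a grouping noticed in the values. The 2 probes of Hmgcs1 had r = 0.69 with each other, below its r with Sqle and Idi1, so its relations may depend on the probe. For Idi1 and Fdps the 2 probes had r of 0.915 and 0.964. Relations on the dimmer probes were not tested. Of the 21 pairs among the 7 genes, 4 had a Pearson correlation with a permutation p under 0.05 after Benjamini-Hochberg adjustment over the 21, and 6 had such a Spearman correlation. Hmgcs1 and Sqle had r = 0.90 (adjusted p = 0.0119) and rho = 0.92 (adjusted p = 0.0103). Idi1 followed both, with r = 0.89 to Sqle (adjusted p = 0.00294; rho = 0.85, adjusted p = 0.0332) and r = 0.88 to Hmgcs1 (adjusted p = 0.0104; rho = 0.78, adjusted p = 0.0444). The other trio was Fdps, Fdft1 and Cyp51. Fdps and Cyp51 had r = 0.79 (adjusted p = 0.0388) and rho = 0.83 (adjusted p = 0.0332), while Fdps with Fdft1 (r = 0.70, rho = 0.78) and Fdft1 with Cyp51 (r = 0.74, rho = 0.77) passed by rank only (adjusted p = 0.0444 for both rho). Without the 2 arrays farthest from the median of the first gene of a pair, r was 0.69 for Hmgcs1 and Sqle, 0.72 for Hmgcs1 and Idi1, 0.93 for Idi1 and Sqle and 0.84 for Fdps and Cyp51. Between the trios r was lower, from 0.27 for Hmgcs1 and Fdft1 to 0.66 for Sqle and Cyp51, and the difference between these values was not tested. Insig1 had r = -0.17 with Hmgcs1, -0.06 with Idi1 and 0.09 with Sqle, but 0.63 with Fdps, 0.58 with Cyp51 and 0.53 with Fdft1, and none of these passed. The points share the arrays, so anything that differs between arrays enters each pair, and a slide held at most 4 arrays, too few for values within slides. After subtracting group means, r was 0.97 for Hmgcs1 and Sqle, 0.94 for Hmgcs1 and Idi1 and 0.80 for Fdps and Cyp51. The trios were less distinct there, since r was 0.72 for Sqle and Cyp51, of different trios, and 0.71 for Fdps and Fdft1, of the same one. Without the 2 farthest arrays, r between the trios ran from -0.54 for Hmgcs1 and Fdps to 0.69 for Idi1 and Cyp51. That of Sqle and Cyp51 was 0.29. The arrays left out there depend on the first gene of the pair.

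**Figure D4:**
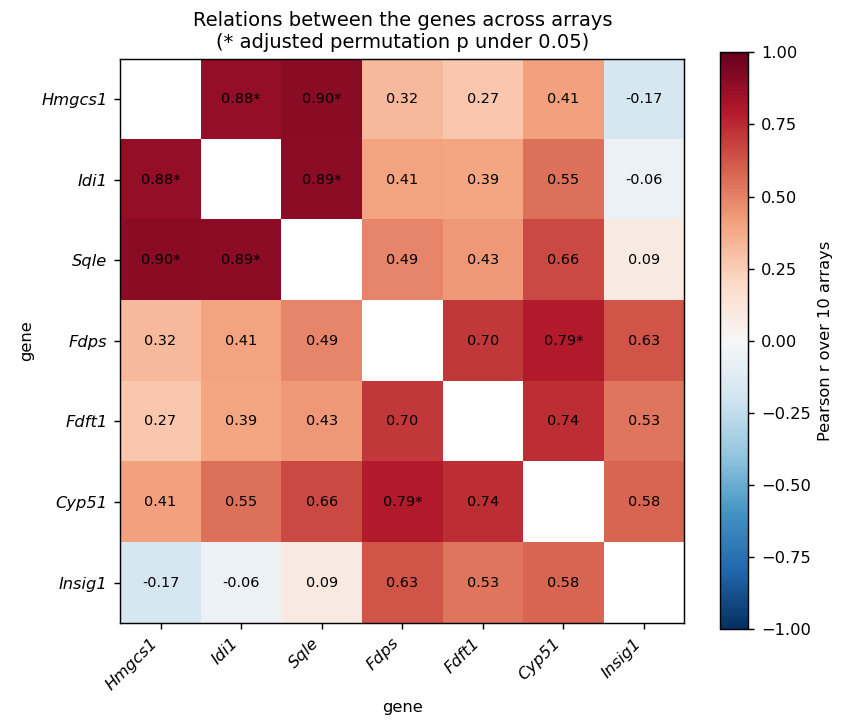
Pearson r over the 10 arrays (colour and printed value) for each pair of the 7 genes (both axes), on the brightest probe of each. A star marks a permutation p adjusted over 21 pairs under 0.05. Each pair stands on both sides of the diagonal. The 3 starred pairs at the upper left join Hmgcs1, Idi1 and Sqle, the other starred pair is Fdps and Cyp51, and the Insig1 row has none.

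Other genes with a like profile were ranked by Pearson r with the mean standardised profile of the 7 genes over the 10 arrays, among 9178 genes with 1 probe each. The closest 10 included Golt1a (r = 0.93), Aacs (r = 0.86), Vmo1 (r = 0.86), Msmo1 (r = 0.85), D2hgdh (r = 0.85), Atp6v1b2 (r = 0.84), Nfe2 (r = 0.84), Prpf6 (r = 0.81) and Glt8d1 (r = 0.80). Aacs encodes acetoacetyl-CoA synthetase, which feeds ketone bodies into lipid synthesis in the cytosol, and Msmo1 a methylsterol monooxygenase of the same pathway. They are the highest of many values, and are given as a description. None of the 9 was called in any comparison, and Aacs had the largest changes, 0.44 in SM and 0.82 in SM + MSTF against control (limma adjusted p = 0.717 and 0.656). Acat2, Dhcr7 and Mvd, further enzymes of the pathway, ranked 17, 25 and 55 with r of 0.77, 0.75 and 0.69.

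The remaining enzymes of the pathway, 13 genes that were all tested, gave 0 calls in each comparison and 0 at an unadjusted p under 0.05. Their median log2 change was 0.20 in SM versus control, with 10 of 13 above 0 and a range from -0.28 for Msmo1 to 0.33 for Dhcr7, the last reductase of the pathway. For SM + MSTF the median was -0.02 against control (Pmvk -0.20, Hsd17b7 0.20) and -0.18 against SM (highest Msmo1, 0.26). These medians rested on 1 array. SM + MSTF replicate 3 was the lowest of all 10 arrays for 10 of these 13 genes, and for 1 of the 7 genes followed here, Fdps. Without that array the medians were 0.24 and 0.11, and all 13 were above the control mean, Pmvk included (0.14). The arrays left included SM + MSTF replicate 2, the highest of all 10 arrays for 5 of these 13 genes, so these values lean on that array in turn. Without replicate 3, SM + MSTF also shared no slide with control. Group and slide cannot be told apart in such values, here and below.

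Lists around the pathway also held 0 calls by limma. Their counts at an unadjusted p under 0.05 are to be read against the 16.4%, 9.54% and 15.9% of all probes that passed, and as the lists hold 5 to 8 genes a count of 1 is near that share. Among 7 tested genes of SREBP control, 3 had an unadjusted p under 0.05 in SM versus control, and the extremes were Srebf2, the gene of SREBP-2 itself, at 0.37 (adjusted p = 0.275) and Mylip, a ubiquitin ligase for lipoprotein receptors, at -0.33 (adjusted p = 0.154). In SM + MSTF the extremes of this list were Insig2 (-0.26) and Nr1h2 (0.15) against control, and Insig2 (-0.39) and Mylip (0.25) against SM, with 0 and 1 genes at an unadjusted p under 0.05. Among 8 genes of sterol uptake, transfer and storage the extremes in SM versus control were Lrp1, a lipoprotein receptor, at 0.43 and Soat2, which esterifies cholesterol, at -0.25, with 2 genes at an unadjusted p under 0.05. For SM + MSTF they were Lrp1 (0.55, adjusted p = 0.424) and Scarb1, the HDL receptor (-0.35), against control, again with 2 genes, and Npc2 (0.18) and Lipa (-0.20) against SM, with 0 genes. A second probe of each gave less in SM + MSTF versus control, 0.06 for Lrp1 and -0.16 for Scarb1. Of 5 genes of the non-sterol branches, Fntb, a subunit of protein farnesyltransferase, had the largest change, 0.33 from control to SM, -0.32 from control to SM + MSTF and -0.65 from SM to SM + MSTF (adjusted p = 0.273), while Ggps1 gave -0.17, 0.04 and 0.21. The values of Fntb in SM + MSTF rested on replicate 3. Without it they were 0.09 against control and -0.24 against SM. With all arrays, a second and dimmer probe gave 0.54 from control to SM (limma unadjusted p = 0.00997, adjusted p = 0.141). It gave 0.20 from control to SM + MSTF and -0.34 from SM to SM + MSTF. On the brightest probe of each gene, the numbers of these 5 at an unadjusted p under 0.05 were 0, 0 and 2.

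Sterol export and breakdown, with 6 genes tested, had medians of -0.04, 0.20 and 0.14 in the 3 comparisons and 1, 0 and 1 genes at an unadjusted p under 0.05. Cyp8b1, the sterol 12-alpha-hydroxylase of bile acid synthesis, gave -0.63 in SM versus control (adjusted p = 0.235) and 0.81 from SM to SM + MSTF (adjusted p = 0.167). Cyp7a1, the rate-limiting enzyme of bile acid synthesis, differed by -1.03 between SM + MSTF and control and by -0.86 from SM (adjusted p = 0.706 and 0.581), with a within-group SD of 1.14, and by -0.61 and -0.43 without SM + MSTF replicate 3. Cyp27a1 gave 0.25 in SM and 0.37 in SM + MSTF against control.

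Fatty acid synthesis, which the related factor SREBP-1c controls, was read for contrast. All 7 genes tested were above the control mean in SM (median 0.31) and below it in SM + MSTF (median -0.42), with a median of -0.72 in SM + MSTF versus SM, and 0 of 7 were called, with 1, 0 and 2 at an unadjusted p under 0.05. SM + MSTF replicate 3 was the lowest of all 10 arrays for all 7. Scd, stearoyl-CoA desaturase, read 10.23 there against 14.39 to 15.95 on the other 9 arrays, and Fasn read 12.06 against 13.86 to 15.13. Without that array the medians were 0.33 against control and 0.01 against SM. Of the 7 genes of cholesterol synthesis, 4 were also lowest of their group on this array (Fdps, Fdft1, Cyp51 and Insig1), while Hmgcs1, Sqle and Idi1 lay between the other SM + MSTF arrays.

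**Figure D5:**
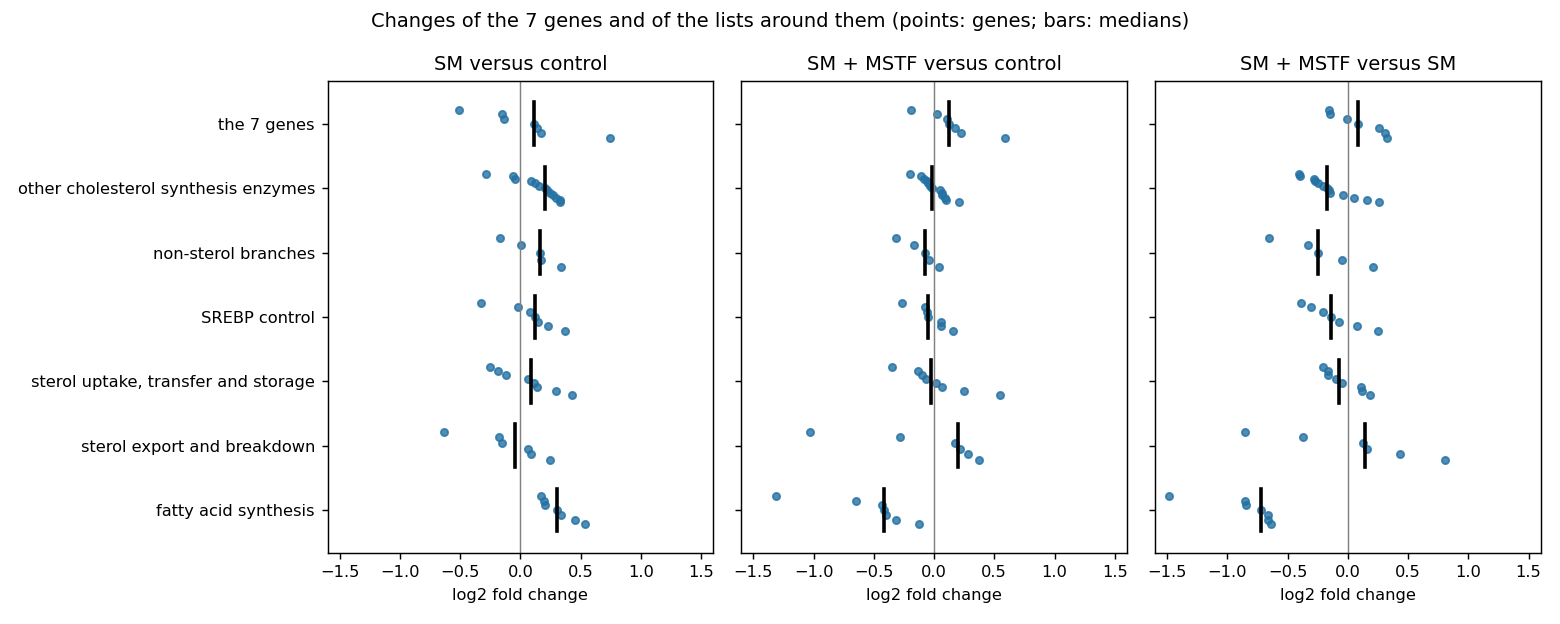
Log2 fold change (x axis) of each tested gene (points) in the 7 genes and the 6 lists around them (y axis) in the 3 comparisons, with black bars for medians. The 7 genes spread on both sides of 0 in each comparison, and fatty acid synthesis lies right of 0 in SM versus control and left of it in both comparisons of SM + MSTF.

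Feeding state and time of day also move this pathway, so genes of both were read. The 8 genes of the fasting response gave 0 calls, with medians of -0.32, 0.45 and 0.45 and 1, 1 and 3 genes at an unadjusted p under 0.05, beside 16.4%, 9.54% and 15.9% of all probes. SM + MSTF replicate 3 was the highest of all 10 arrays for 5 of these 8, and without it the medians of SM + MSTF were 0.24 against control and 0.16 against SM. The 8 tested circadian clock genes had medians of 0.22, 0.01 and -0.19, with 3, 0 and 3 at an unadjusted p under 0.05. Of them only Nr1d1, a clock repressor known to act on lipid genes in liver, was called. That was in 2 comparisons, where 2.41% and 1.26% of all probes were called. It fell by 0.88 in SM versus control on the log2 scale (adjusted p = 0.0471) and was higher by 1.07 in SM + MSTF than in SM (adjusted p = 0.0317). Its SM arrays read 6.55 to 6.94 and did not overlap with control (7.17 to 7.92) or SM + MSTF (7.72 to 8.09), and its part in the values of the 7 genes was not tested. Other clock genes moved as far without being called. The extremes against control were Nr1d2 (-0.95) and Per1 (0.49) in SM, and Per2 (-1.11) and Per1 (0.43) in SM + MSTF. From SM to SM + MSTF, Nr1d2 differed by 0.90 and Per2 by -1.03. Of the markers of other cells, only lymphocyte genes were called, Cd79b of B cells lower in SM than in control (-2.18, adjusted p = 0.0277) and Klrd1 of natural killer cells higher in SM + MSTF than in SM (1.15, adjusted p = 0.0455). The lists for Kupffer cells and macrophages, endothelial cells, stellate cells, bile duct, adipose tissue and hepatocytes held 0 calls. All 6 Kupffer cell and macrophage markers were higher in SM + MSTF than in SM (median 0.45). Of these, 3 of 6 had an unadjusted p under 0.05, beside 15.9% of all probes. The same 6 lay below control in SM (median -0.16) and above it in SM + MSTF (median 0.34), with 0 of 6 at that p in each. The other marker lists held at most 2 such genes in a comparison. In SM versus control these were 2 of 5 for stellate cells and 2 of 3 tested for lymphocytes, beside 16.4% of all probes. In SM + MSTF versus control they were 2 of 5 for stellate cells and 2 of 8 for hepatocytes, beside 9.54%.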

How the data were processed

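Liver RNA of 10 rats (3 control, 4 SM, 3 SM + MSTF) was read on 10 one-colour arrays. The authors extracted an intensity for each spot with Agilent Feature Extraction 10.7, named in the submitters' processing notes, which subtracts background and flags spots. They deposited log2 values that GeneSpring had quantile normalized. Here the deposited background-subtracted intensity was taken instead, because its spot flags are kept. It was quantile normalized without the 0 to 4 non-uniform spots of an array, converted to log2, and spots of a probe were averaged. No spot was saturated. A probe was tested if some group had it well above background throughout (22987 of 41012). Quantile normalization gives all arrays 1 distribution, so a change shared by most probes cannot be seen.

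One limma fit (limma 3.58.1, R 4.3.3) held all 10 arrays, and p-values were adjusted by Benjamini-Hochberg across every probe tested. A call needed an adjusted p under 0.05 and at least 1.5-fold. Accessions were matched to a RefSeq table (GRCr8), which named 17512 probes. The design is older, so probe coordinates are not given. A gene's main probe has its highest mean signal. Named are the 7 genes on all probes, called list genes, extremes of the sterol and clock lists and 9 of the 10 genes of most like profile. Members and lists were chosen with earlier results of these data known. Of 113 list genes, 105 had a probe and 97 a tested one. Pairs of arrays had r from 0.969 to 0.991 over probes, which are not independent. Relations between genes were tested by 100000 permutations, two-sided (Python 3.11.15). The number of arrays limits precision.

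Alternatives were 75th percentile scaling, the authors' log2 values, normexp (offset 50, on median signals), the dim filter dropped or extended to all 10 arrays, a fit on each pair of groups, adjusted p alone, the methods' t-test, the mean of a gene's probes, replicate number or slide as a block, and leaving out each array. Scripts were tested on simulated data. Some genes of the pathway are not reported here.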

Additional observations from a re-analysis of the deposited data

Results flagged for a closer look

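Among 55 groups of 4 SM arrays examined, 1 for each probe of the 7 genes and for the main probe of each gene in the sterol lists around them, 2 held an array far from the other 3, and chance gives about 1 such group in 20. Acat2, the cytosolic thiolase that opens the pathway, read 12.56 on SM replicate 3 against 12.98 to 13.06 on the other SM arrays, a gap of 0.851 of the whole range. Mvd, mevalonate diphosphate decarboxylase, read 11.59 on SM replicate 1 against 11.40 to 11.43, a gap of 0.877 of the range, over a distance of less than 0.2 on the log2 scale. None of the 13 probes of the 7 genes held such an array.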

How the results depend on the processing

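Under every alternative run, 0 of the 7 genes were called in all 3 comparisons. That covers the replicate block too, where the median change of the 7 genes was 0.13 for SM and 0.12 for SM + MSTF against control, and 0.08 between the last pair. Same-numbered arrays of different groups deviated together with r from -0.0991 to 0.169 (3 of 9 over 0.1). Differently numbered ones had r from -0.232 to 0.181 (6 of 24 over 0.1). The numbers were not taken as pairs in the main fit, and these values cannot settle whether they pair the rats. With each array left out in turn, the medians ran from 0.02 to 0.25, -0.04 to 0.37 and -0.01 to 0.19, and the values below 0 came without SM + MSTF replicate 2. Of the changes of single genes, 4 of 147, 12 of 154 and 5 of 147 turned their sign under an alternative. Insig1 in SM versus control ran from 0.51 (without control replicate 1) to 1.03 (without control replicate 2, limma adjusted p = 0.135). Its adjusted p ran from 0.135 to 0.464. In the same comparison, without control replicate 2, Idi1 and Sqle turned to 0.11 and 0.11.

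Counts over all probes moved far more. In SM versus control 553 probes were called, against 54 with the replicate block, 85 with the slide as a random block, 217 with normexp, 342 without the dim filter, 336 with probes well above background on all 10 arrays, 320 by the methods' t-test after Benjamini-Hochberg adjustment, 1131 unadjusted, and, with an array left out, 65 (control replicate 2) to 717 (SM + MSTF replicate 3). In SM + MSTF versus SM 290 were called, against 64, 102, 57, 269, 140, 13 and 863 under the same settings, 155 with only the groups compared, and 98 (without SM replicate 1) to 301 with an array left out. In SM + MSTF versus control 0 were called (2194 at an unadjusted p under 0.05), against 291 with the slide as a fixed block, 285 by the unadjusted t-test and 0 to 247 with an array left out (247 without SM + MSTF replicate 3). The slide as a fixed block could not be fitted for comparisons with SM, and its count for SM + MSTF versus control rests on SM + MSTF replicate 3 alone against the 3 controls of that slide. The medians of the lists and the values of Pmvk, Fntb and Cyp7a1 without SM + MSTF replicate 3 were chosen after seeing the data. In them, as in the 247 calls, SM + MSTF and control lay on different slides, so group and slide cannot be told apart. All 13 probes of the 7 genes were well above background on all 10 arrays.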
